A study of Mus musculus with 14 samples.

Results

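RNA-seq values were examined for 48 genes of the TGF-beta and bone morphogenetic protein (BMP) pathways in mouse hepatocellular carcinoma (HCC) cells that lack ATP-citrate lyase (ACLY), acyl-CoA synthetase short-chain family member 2 (ACSS2), or both. The genes were taken by symbol, and all 48 were found among the 24972 gene rows. They comprised 11 ligands, 5 genes for latency and processing, 10 receptors, 6 Smads that carry the signal, 6 antagonists, 5 inhibitory Smads, Smurfs and SnoN, and 5 target genes. ACLY makes cytosolic acetyl-CoA from citrate and ACSS2 makes it from acetate.

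The 14 libraries came from 4 genotypes grown from 1 background, a line made from a diethylnitrosamine-induced liver tumor of a mouse with floxed Acly alleles, which all 4 genotypes therefore carry or carried. WT (n = 4) kept intact Acly and Acss2. ACLY KO (n = 4) was a clonal population grown from a single cell after Acly was deleted by adenoviral Cre. Both then received the LentiCRISPR v2 vector without a guide and were kept as bulk, puromycin-selected populations. ACSS2 KO (n = 3) was a single-cell clone of the WT line edited with a guide to the first exon of Acss2. DKO1 (n = 3) was a single-cell clone of ACLY KO cells edited with the same guide, so that it lacks both enzymes. A genotype and its clone therefore cannot be told apart here. Cells were kept for 24 hours in DMEM with 10% calf serum before extraction. The labels do not say whether the libraries of a genotype came from separate cultures, and p-values measure only the spread between these libraries.

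TGF-beta family ligands are secreted as dimers and bind pairs of type I and type II serine/threonine kinase receptors. TGF-betas and activins signal through Smad2 and Smad3, BMPs through Smad1, Smad5 and Smad9, and both arms share Smad4. Latent TGF-beta binding proteins hold TGF-beta in the matrix, and follistatins, noggin and gremlin bind ligands outside the cell. Smad6, Smad7 and the Id genes are induced by the pathway itself, and in liver BMP signaling is known for control of iron uptake while TGF-beta is known for growth arrest and fibrosis.

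Values are normalized counts, given below in the order of replicates 1 to 4 for WT and ACLY KO, replicates 1, 2 and 4 for ACSS2 KO and replicates 1, 3 and 4 for DKO1. The library totals were 23565700 to 26946200. Dividing each total by its most frequent low value, taken as 1 read, gave rough depths of 19170390 to 33529674 reads. The values were scaled by a factor for each gene and library, so these depths are not exact. Acly was 965 to 1084 in ACLY KO and 931 to 956 in DKO1, against 5461 to 6435 in WT and 5542 to 5762 in ACSS2 KO. Acss2 was 127 to 135 in ACSS2 KO, 224 to 252 in WT, 455 to 578 in DKO1 and 660 to 787 in ACLY KO, and since an edited gene can still be transcribed, its level does not check the DKO1 label. Replicate 4 of DKO1 and replicate 2 of WT deviated most from their group means, by 0.49 and 0.36 log2 units (root mean square). The next was DKO1 replicate 1 at 0.34. Results that rest on DKO1 replicate 4 or WT replicate 2 are given without them. Their values fell with transcript length (correlations with the deviation from the group mean of -0.61 and -0.53). So did those of ACLY KO replicate 4 (-0.51) and ACSS2 KO replicate 1 (-0.48). Of 11 hepatocyte markers, only Alb, Apob, Hnf4a, Krt8 and Krt18 had a mean of at least 10, and Apoa1, Cps1 and Asgr1 were near 0. All 6 cholangiocyte markers were present, and 1 of 6 endothelial and 2 of 6 macrophage markers reached 10. The 10 stellate cell or fibroblast markers, 7 of which reached 10 while Lrat stayed near 0, summed to 2192 to 2504 in WT, 3605 to 3955 in ACLY KO, 5307 to 6240 in ACSS2 KO and 2133 to 2250.0 in DKO1.

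The pathway genes moved in different directions in ACLY KO and ACSS2 KO cells. In ACLY KO cells Bmp2, Bmp4, Inhba, Inhbb, Id1, Id3, Smad9, Fstl1 and Tgfbi fell against WT, and Bmpr1b and Acvr2a rose. In ACSS2 KO cells Bmp2, Bmp4, Bmp6, Bmp7, Id1, Id3, Smad6, Smad9 and Tgfb1i1 rose, while Inhba, Fstl1 and Tgfbi fell. Of these rises, only those of Bmp6 and Bmp7 were also called in DKO1 against ACLY KO. DKO1 cells had low Bmp2, Bmp4, Id1, Id3 and Smad9 and high Bmpr1b, and lower Tgfb1, Inhbb, Skil, Smad7 and Ltbp3 than each of the other 3 genotypes.

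Of the 48 genes, 45 averaged 10 normalized counts or more and were tested with limma. P-values were adjusted over all 12711 genes tested, and a gene was called at an adjusted p under 0.05. ACLY KO against WT called 30 of the 45, 8 higher and 22 lower, where 48.5% of all genes were called, 23.8% higher and 24.7% lower. ACSS2 KO against WT called 21, 14 higher and 7 lower, against 26.0% of all genes, 15.1% higher and 11.0% lower. DKO1 against WT called 35, 7 higher and 28 lower, against 56.0% of all genes, 27.9% higher and 28.1% lower. These 3 comparisons share the WT libraries.

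DKO1 against ACLY KO called 18 of the 45, 7 higher and 11 lower, against 27.9% of all genes, 14.3% higher and 13.6% lower. With library totals made equal the split in that comparison was 4 higher and 11 lower. DKO1 against ACSS2 KO called 31, 5 higher and 26 lower, against 53.7% of all genes, 25.9% higher and 27.8% lower. The median log2 fold change of the 45 genes was -0.27 in ACLY KO against WT, 0.17 in ACSS2 KO against WT, -0.44 in DKO1 against WT, -0.070 in DKO1 against ACLY KO and -0.47 in DKO1 against ACSS2 KO. The median of all genes tested lay between -0.0067 and 0.0057 in these comparisons. Stricter limits that the study applied to its own comparisons with WT, a log2 fold change beyond 1.5 in size with an adjusted p under 0.01, were also counted. Against WT these were passed by 4 genes in ACLY KO (8.80% of all genes), 5 in ACSS2 KO (2.42%) and 5 in DKO1 (9.84%). DKO1 passed them for 1 gene against ACLY KO (2.06%) and for 8 against ACSS2 KO (11.3%).

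**Figure D1:**
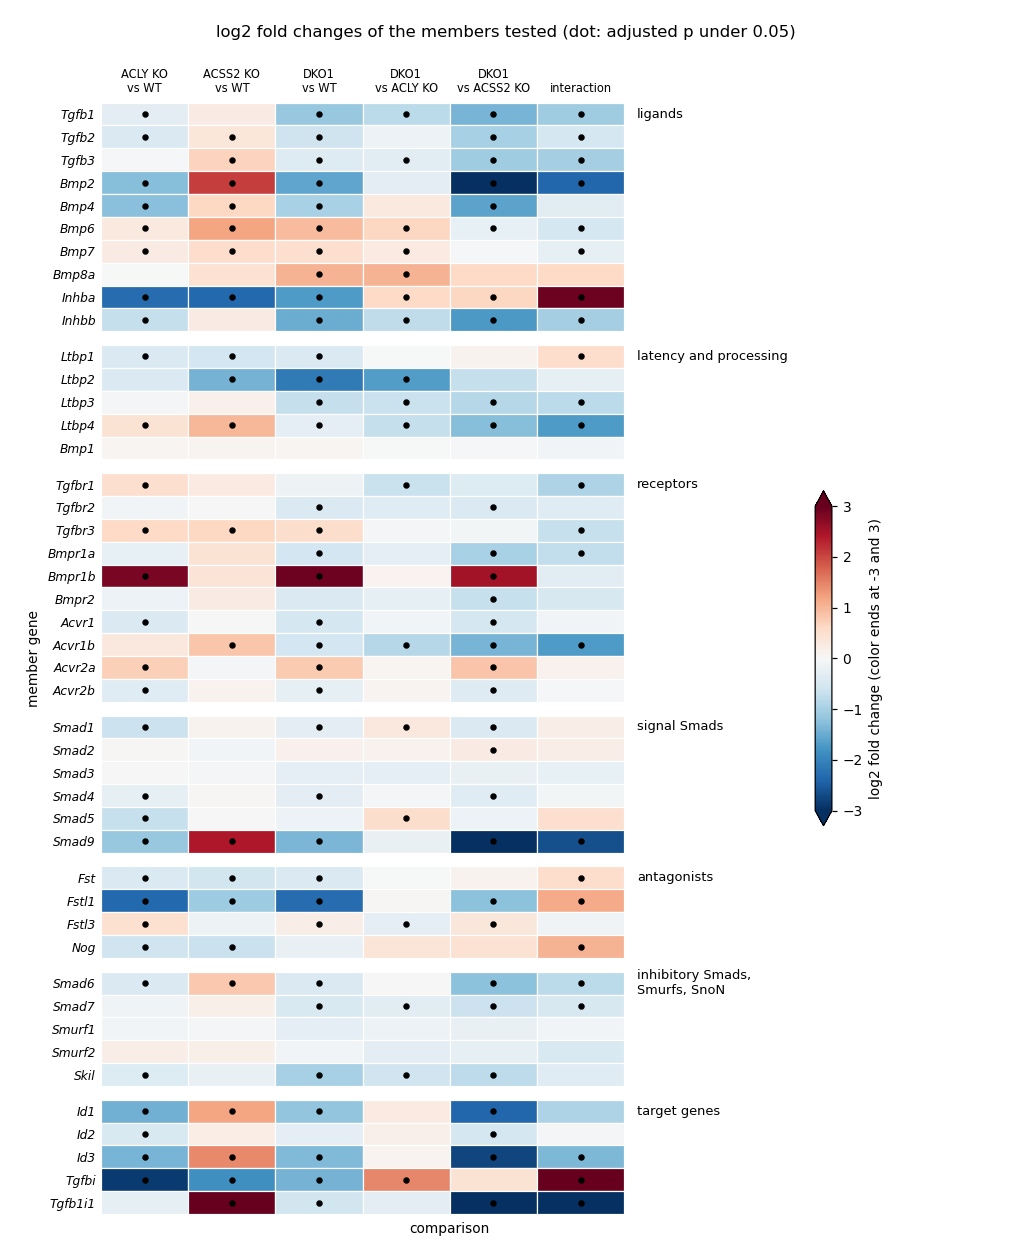
Heat map of the log2 fold changes of the 45 genes tested (rows, grouped by role) in 5 comparisons and the interaction (columns), with a dot where the adjusted p is under 0.05. Blue (lower) predominates for ligands, Smads and target genes wherever cells without ACLY are compared with cells that have it, Bmp2, Smad9, Id1 and Id3 turn red (higher) in ACSS2 KO against WT, and Bmpr1b is red in all 3 comparisons of cells without ACLY with cells that have it.

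The BMP ligand genes Bmp2, Bmp4, Bmp6 and Bmp7 all rose in ACSS2 KO cells against WT, and Bmp2 and Bmp4 fell in cells without ACLY. Bmp2, a ligand for the BMP type I receptors, was 27.8, 32.4, 34.5 and 49.5 normalized counts in the WT libraries, 12.5, 12.5, 15.1 and 16 in ACLY KO, 158, 141 and 156 in ACSS2 KO and 14.8, 6.58 and 13.5 in DKO1. The gene lies at chr2:133552159-133562885 (plus strand) in GRCm38. Every ACSS2 KO library was above every WT library, every library without ACLY was below WT, and ACLY KO and DKO1 overlapped. Bmp2 was 4.20-fold higher in ACSS2 KO than in WT (log2 fold change 2.07 ± 0.25, where the error is the SE of the fit, adjusted p = 5.5e-05, limma). It was 2.42-fold lower in ACLY KO than in WT (-1.28 ± 0.23, adjusted p = 5e-04) and 12.7-fold lower in DKO1 than in ACSS2 KO (-3.66 ± 0.27, adjusted p = 1.4e-07). DKO1 against ACLY KO did not pass the test (-0.31 ± 0.25, adjusted p = 0.39).

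Bmp4, a BMP ligand of the liver and many other tissues, was 510.1, 559, 494 and 468 in WT, 232, 182, 215 and 216 in ACLY KO, 799.8, 787 and 754 in ACSS2 KO and 220.2, 245 and 312 in DKO1. The libraries without ACLY lay below WT and the ACSS2 KO libraries above it, with no overlap, and DKO1 replicate 4 was the highest of the cells without ACLY. Bmp4 was 2.40-fold lower in ACLY KO than in WT (-1.26 ± 0.11, adjusted p = 5.7e-07) and 1.54-fold higher in ACSS2 KO (0.62 ± 0.12, adjusted p = 0.0014). It was 3.04-fold lower in DKO1 than in ACSS2 KO (-1.60 ± 0.12, adjusted p = 2.1e-07). DKO1 against ACLY KO gave 0.28 ± 0.12, adjusted p = 0.089. A rise there was called when DKO1 replicate 1 was left out (0.39, adjusted p = 0.025).

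Bmp6, the ligand that liver endothelial cells use to signal iron status, had a different order, and Bmp7 shared it. Bmp6 was 773, 666, 751 and 717 in WT, 878, 912, 911 and 855 in ACLY KO, 1747, 1609.9 and 1579 in ACSS2 KO and 1418, 1500.2 and 1279.9 in DKO1. Each of the 3 knockout genotypes lay above WT without overlap, and both genotypes without ACSS2 lay above both with it. Bmp6 was 2.26-fold higher in ACSS2 KO than in WT (1.18 ± 0.07, adjusted p = 1.9e-07). In DKO1 it was 1.92-fold higher than in WT (0.94 ± 0.07, adjusted p = 2.3e-07) and 1.57-fold higher than in ACLY KO (0.65 ± 0.07, adjusted p = 3.1e-05). The smaller fall from ACSS2 KO to DKO1 (-0.24 ± 0.08, adjusted p = 0.021) was not called without ACSS2 KO replicate 1 or DKO1 replicate 4, each left out alone (-0.17 to -0.19, adjusted p = 0.059 to 0.09).

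Bmp7, a ligand that acts through the activin and BMP type II receptors, ranged from 787 to 829 in WT, 939 to 989 in ACLY KO, 1135 to 1221 in ACSS2 KO and 1121 to 1199 in DKO1. It rose against WT in ACLY KO (0.24 ± 0.05, adjusted p = 0.0013), ACSS2 KO (0.55 ± 0.05, adjusted p = 8.9e-06) and DKO1 (0.51 ± 0.05, adjusted p = 3.9e-06). DKO1 was also above ACLY KO (0.27 ± 0.05, adjusted p = 0.0024). Bmp6 and Bmp7 were the genes higher after ACSS2 loss both with ACLY (ACSS2 KO against WT) and without it (DKO1 against ACLY KO), 2 of 45, where 2.90% of all genes were. Bmp8a was low, at 13, 7.51, 20.7 and 14.9 in WT, 19, 12.4, 8.37 and 15.1 in ACLY KO, 16.7, 19.1 and 19.7 in ACSS2 KO and 35.0, 37.2 and 17.4 in DKO1. Bmp8a is nearly identical to Bmp8b, so that reads of the pair may be assigned to either. Its rise in DKO1 against WT (1.04 ± 0.35, adjusted p = 0.023) was not called without WT replicate 2 or DKO1 replicates 1 or 3, each left out alone (0.80 to 0.90, adjusted p = 0.056 to 0.09). Its rise in DKO1 against ACLY KO (1.05 ± 0.35, adjusted p = 0.041) was not called without WT replicates 1 or 4, ACLY KO replicates 2, 3 or 4, ACSS2 KO replicates 1, 2 or 4 or DKO1 replicates 1 or 3, each left out alone (0.85 to 1.11, adjusted p = 0.052 to 0.13).

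**Figure D2:**
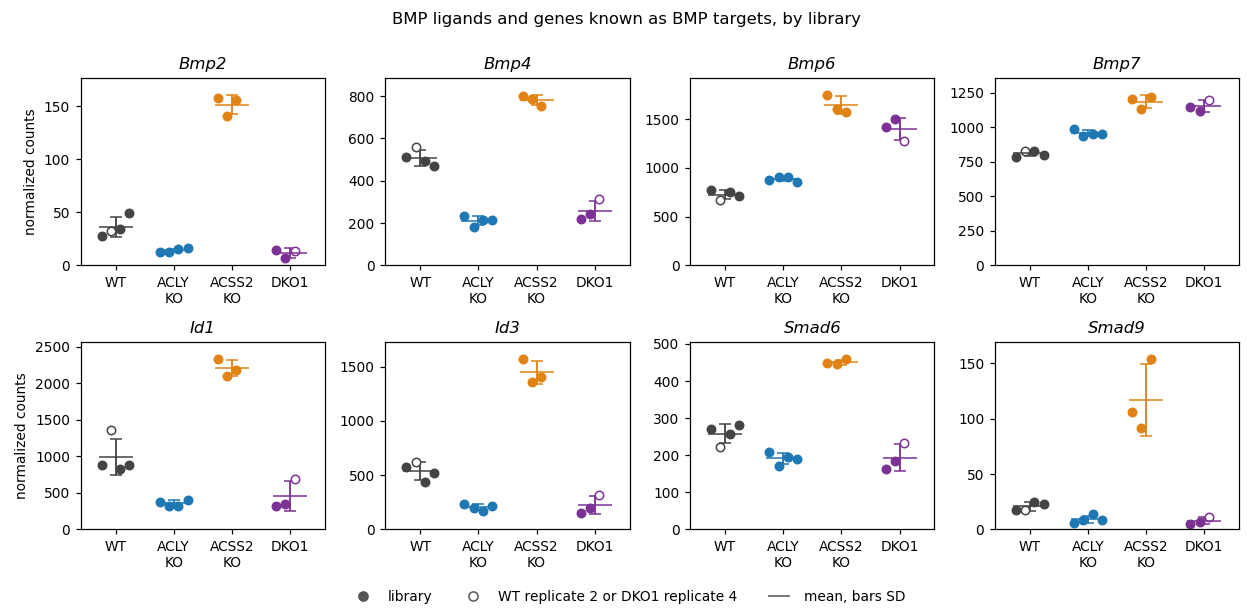
Normalized counts (y axes, linear and starting at 0) of 4 BMP ligands and 4 genes known as BMP targets in each library, by genotype. Points are libraries, open points WT replicate 2 and DKO1 replicate 4, horizontal lines group means and bars SD. The 3 ACSS2 KO libraries are the highest for Bmp2, Bmp4, Bmp6, Id1, Id3, Smad6 and Smad9, and ACLY KO and DKO1 lie below WT for Bmp2, Bmp4, Id1, Id3 and Smad9.

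Id1, Id3, Smad6 and Smad9, which are known as targets of BMP signaling, were likewise highest in ACSS2 KO and lower in ACLY KO than in WT. Id1, an inhibitor of helix-loop-helix transcription factors and an immediate BMP target, was 889, 1363, 824 and 884 in WT, 374, 320.2, 326 and 408 in ACLY KO, 2332, 2106 and 2192 in ACSS2 KO and 318, 354 and 691 in DKO1. Its locus is chr2:152736251-152737410 (plus strand). WT replicate 2 and DKO1 replicate 4 were each the highest of their group, and the only overlap of genotypes was between ACLY KO and DKO1. Id1 was 2.72-fold lower in ACLY KO than in WT (-1.44 ± 0.22, adjusted p = 1e-04) and 2.28-fold higher in ACSS2 KO (1.19 ± 0.24, adjusted p = 0.0022). It was 5.16-fold lower in DKO1 than in ACSS2 KO (-2.37 ± 0.25, adjusted p = 4.2e-06).

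Id3, a relative of Id1 with the same mode of action, was 575, 626, 436 and 519.7 in WT, 230.0, 194, 167 and 219 in ACLY KO, 1567, 1362 and 1408 in ACSS2 KO and 153, 200.1 and 316 in DKO1. The ACSS2 KO libraries were again above all others and the libraries without ACLY below all others. Id3 was 2.70-fold higher in ACSS2 KO than in WT (1.43 ± 0.20, adjusted p = 2e-04) and 2.65-fold lower in ACLY KO (-1.40 ± 0.19, adjusted p = 3.9e-05). It was 6.75-fold lower in DKO1 than in ACSS2 KO (-2.75 ± 0.22, adjusted p = 2.7e-07). Id2, the third of these Id genes, moved less, at 1747 to 2386 in WT, 1301 to 1519 in ACLY KO, 2152 to 2415 in ACSS2 KO and 1400.1 to 1953 in DKO1. Id2 fell in ACLY KO against WT (-0.48 ± 0.12, adjusted p = 0.0039) and in DKO1 against ACSS2 KO (-0.53 ± 0.13, adjusted p = 0.0048). The lower value in DKO1 than in WT (-0.30 ± 0.12, adjusted p = 0.059) was called without WT replicate 4 (-0.35, adjusted p = 0.046) or without DKO1 replicate 4 (-0.45, adjusted p = 0.0026).

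Smad9, a Smad of the BMP arm whose own gene BMPs induce, was 17.4, 17.3, 24.9 and 23.4 in WT, 5.91, 8.53, 13.7 and 8.22 in ACLY KO, 106, 91.6 and 154 in ACSS2 KO and 5.17, 6.75 and 11.2 in DKO1. The lowest ACSS2 KO library was above the highest of the other 11, and ACLY KO and DKO1, which overlapped, were below WT. Smad9 was 5.37-fold higher in ACSS2 KO than in WT (2.43 ± 0.30, adjusted p = 6.2e-05) and 2.21-fold lower in ACLY KO (-1.14 ± 0.28, adjusted p = 0.0039). It was 13.8-fold lower in DKO1 than in ACSS2 KO (-3.79 ± 0.32, adjusted p = 4.9e-07), the largest fall of any of the 45 genes in these comparisons.

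Smad6, which blocks the BMP arm and is induced by it, was 270.4, 222, 258 and 282 in WT, 209, 172, 196 and 190.3 in ACLY KO, 448, 445 and 459 in ACSS2 KO and 164, 184 and 233 in DKO1. ACSS2 KO was above all other libraries and ACLY KO below WT, while DKO1 replicate 4 overlapped WT. Smad6 was 1.75-fold higher in ACSS2 KO than in WT (0.81 ± 0.12, adjusted p = 0.00025). It was lower in ACLY KO (-0.42 ± 0.11, adjusted p = 0.0061) and DKO1 (-0.42 ± 0.12, adjusted p = 0.0087) than in WT, and 2.34-fold lower in DKO1 than in ACSS2 KO (-1.23 ± 0.13, adjusted p = 3.3e-06).

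The ACSS2 KO libraries in which these genes were highest also had the highest stellate cell or fibroblast marker sums. Acta2 was at 3868 to 4747 against 1518 to 1774 in WT and Dcn at 786 to 860.1 against 145 to 173, and these carried the sum. Not all markers followed it, since Col3a1 was 66.9 to 69.7 in ACSS2 KO, 73.4 to 87.4 in WT, 375 to 429 in ACLY KO and 445 to 711 in DKO1. Over the 7 markers tested, 4 were called higher than WT in each of the 3 knockout genotypes. Both genotypes without ACLY also had 1 marker called lower than WT, while ACSS2 KO had 0. Acta2 was 618 to 650 in ACLY KO and 700 to 877 in DKO1, below WT. Of all genes, 15.1% were called higher and 11.0% lower for ACSS2 KO, 23.8% and 24.7% for ACLY KO, and 27.9% and 28.1% for DKO1. The median log2 fold changes of the 7 markers were 1.53 for ACLY KO, 1.37 for DKO1 and 0.64 for ACSS2 KO. ACSS2 KO was grown from a single cell, so the markers are given as gene levels in that clone and not as shares of cell types. The cause of the rise was not tested. In ACLY KO the sum was also above WT while Bmp2, Bmp4, Id1, Id3 and Smad9 were below WT. In bulk RNA, fewer cells with a transcript and less of it per cell cannot be told apart.

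The bases before the start of 4 of these genes are shown because Bmp4, Smad6 and Smad9 were highest in ACSS2 KO and lower in ACLY KO than in WT, while Inhba, an activin gene described below, was highest in WT. Each run is the 250 bases before the RefSeq start in GRCm38.p6, 5′ to 3′ on the gene's strand. Capitals mark GGCGCC, a GC-rich element that BMP Smads bind, or CAGAC, the Smad box (GTCTG on the other strand). The genes lie at chr14:46383520-46390669 (minus strand), chr9:63953076-64022059 (minus strand), chr3:54755582-54801257 (plus strand) and chr13:16011851-16031621 (plus strand) in the GENCODE annotation of GRCm38. The windows are chr14:46390670-46390919 (minus strand) for Bmp4, chr9:64022060-64022309 (minus) for Smad6, chr3:54755332-54755581 (plus) for Smad9 and chr13:16011601-16011850 (plus) for Inhba.
Bmp4: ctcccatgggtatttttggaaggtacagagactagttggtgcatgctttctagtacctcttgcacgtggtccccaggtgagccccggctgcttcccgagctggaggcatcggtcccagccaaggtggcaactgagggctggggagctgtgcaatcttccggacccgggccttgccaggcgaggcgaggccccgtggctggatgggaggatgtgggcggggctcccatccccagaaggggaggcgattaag
Smad6: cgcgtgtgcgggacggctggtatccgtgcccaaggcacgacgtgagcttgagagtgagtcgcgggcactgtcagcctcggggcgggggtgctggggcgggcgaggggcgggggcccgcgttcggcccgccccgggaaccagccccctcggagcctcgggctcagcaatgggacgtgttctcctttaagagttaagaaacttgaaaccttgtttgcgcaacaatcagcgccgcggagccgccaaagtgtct
Smad9: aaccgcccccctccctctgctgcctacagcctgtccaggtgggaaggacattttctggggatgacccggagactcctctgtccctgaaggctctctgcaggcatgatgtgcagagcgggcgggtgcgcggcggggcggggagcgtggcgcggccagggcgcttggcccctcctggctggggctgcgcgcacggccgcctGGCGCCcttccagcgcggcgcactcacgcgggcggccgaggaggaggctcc
Inhba: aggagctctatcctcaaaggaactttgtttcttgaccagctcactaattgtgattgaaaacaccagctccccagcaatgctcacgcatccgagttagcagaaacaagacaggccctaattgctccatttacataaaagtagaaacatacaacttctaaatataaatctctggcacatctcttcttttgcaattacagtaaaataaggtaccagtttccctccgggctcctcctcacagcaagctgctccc
The Smad9 window held 1 GGCGCC, which begins 51 bases before the start, and no window held CAGAC on either strand. Of 32851 such windows over all genes, 9.59% held GGCGCC and 42.2% held CAGAC, and the motifs do not overlap one another in these 4 windows.

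The activin subunit gene Inhba was the ligand gene that fell most in the single knockouts. Inhba encodes the beta A chain of activin A, a ligand that signals through Smad2 and Smad3. Its values were 597, 697, 708 and 705 in WT, 133, 134, 141 and 135 in ACLY KO, 127, 155 and 115 in ACSS2 KO and 235, 208 and 179 in DKO1. All knockout libraries were far below the lowest WT library, ACLY KO and ACSS2 KO overlapped, and DKO1 lay between them and WT. Inhba was 4.94-fold lower in ACLY KO (-2.31 ± 0.11, adjusted p = 2.1e-09) and 5.10-fold lower in ACSS2 KO (-2.35 ± 0.11, adjusted p = 3e-08) than in WT. In DKO1 it was 3.27-fold lower than in WT (-1.71 ± 0.11, adjusted p = 6.9e-08). DKO1 was above ACLY KO (0.60 ± 0.11, adjusted p = 0.0019) and above ACSS2 KO (0.64 ± 0.12, adjusted p = 0.00065).

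Inhbb, the beta B chain of activin B, did not share this order. Its values were 264, 302, 258 and 242 in WT, 142, 188, 172 and 148 in ACLY KO, 329, 346 and 273 in ACSS2 KO and 90.0, 87.5 and 106 in DKO1. WT and ACSS2 KO overlapped, ACLY KO was below both and DKO1 below ACLY KO. Inhbb was 1.64-fold lower in ACLY KO than in WT (-0.72 ± 0.12, adjusted p = 0.00019). In DKO1 it was 1.70-fold lower than in ACLY KO (-0.77 ± 0.13, adjusted p = 0.00065) and 3.31-fold lower than in ACSS2 KO (-1.73 ± 0.13, adjusted p = 2.3e-07). Inhbe, the beta E chain and a gene of liver cells, was under the limit for testing, at 0 to 1.32 in WT, 3.50 to 6.6 in ACLY KO, 0 to 3.12 in ACSS2 KO and 4.59 to 12.4 in DKO1.

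The 3 TGF-beta genes had their lowest means in DKO1 and their highest in ACSS2 KO. Tgfb1, which encodes the TGF-beta most studied in fibrosis, was 383, 376, 319 and 337 in WT, 282, 276, 272 and 301 in ACLY KO, 437, 411 and 416 in ACSS2 KO and 189, 141 and 155 in DKO1. Its locus is chr7:25687002-25705077 (plus strand). No 2 genotypes overlapped. Tgfb1 was 2.20-fold lower in DKO1 than in WT (-1.14 ± 0.10, adjusted p = 8.1e-07), 1.76-fold lower than in ACLY KO (-0.82 ± 0.10, adjusted p = 6.8e-05) and 2.62-fold lower than in ACSS2 KO (-1.39 ± 0.11, adjusted p = 2e-07). The smaller fall in ACLY KO against WT (-0.32 ± 0.09, adjusted p = 0.012) was not called with library totals made equal (-0.21, adjusted p = 0.11). The value in ACSS2 KO against WT was 0.26 ± 0.10, adjusted p = 0.081, and it was called without DKO1 replicate 1 in the fit (0.26, adjusted p = 0.034).

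Tgfb2 and Tgfb3 encode the other two TGF-betas. Tgfb2 ranged from 1219.9 to 1349 in WT, 889 to 975 in ACLY KO, 1626 to 1664 in ACSS2 KO and 775 to 898 in DKO1. It fell in ACLY KO (-0.46 ± 0.06, adjusted p = 3e-05) and DKO1 (-0.63 ± 0.06, adjusted p = 3.1e-06) and rose in ACSS2 KO (0.36 ± 0.06, adjusted p = 0.001) against WT. DKO1 was 1.99-fold below ACSS2 KO (-0.99 ± 0.07, adjusted p = 7.5e-08). For DKO1 against ACLY KO the value was -0.17 ± 0.06, adjusted p = 0.06, and a fall was called without DKO1 replicate 1 (-0.24, adjusted p = 0.017). Tgfb3 was 749.8, 697, 803 and 711 in WT, 768, 716, 729 and 662 in ACLY KO, 1153, 1203 and 1208 in ACSS2 KO and 656, 574 and 481 in DKO1. WT and ACLY KO overlapped, ACSS2 KO was above and DKO1 below the other genotypes. Tgfb3 was 1.61-fold higher in ACSS2 KO than in WT (0.68 ± 0.10, adjusted p = 0.00016) and 2.10-fold lower in DKO1 than in ACSS2 KO (-1.07 ± 0.10, adjusted p = 1.6e-06). DKO1 was also below WT (-0.38 ± 0.10, adjusted p = 0.004). The fall from ACLY KO to DKO1 (-0.34 ± 0.10, adjusted p = 0.017) was not called without ACLY KO replicate 1 (-0.31, adjusted p = 0.051) and was -0.23 without DKO1 replicate 4.

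Among genes that hold TGF-beta latent, Ltbp3 and Ltbp4 had the clearest changes. Ltbp4, a latent TGF-beta binding protein of elastic fibers, was 1395, 1134, 1349.9 and 1332 in WT, 1766, 1707, 1849.9 and 1673 in ACLY KO, 2486, 2728 and 2579.9 in ACSS2 KO and 1107, 1252 and 879 in DKO1. ACLY KO lay above WT and ACSS2 KO above ACLY KO with no overlap, while DKO1 overlapped WT. Ltbp4 rose in ACLY KO (0.43 ± 0.10, adjusted p = 0.0029) and 2.00-fold in ACSS2 KO (1.0 ± 0.11, adjusted p = 2e-05) against WT. DKO1 was below ACLY KO (-0.71 ± 0.11, adjusted p = 0.00035) and 2.43-fold below ACSS2 KO (-1.28 ± 0.11, adjusted p = 8.4e-07). Its lower value in DKO1 than in WT (-0.28 ± 0.11, adjusted p = 0.039) was not called without WT replicates 1, 3 or 4, ACLY KO replicates 1 or 2, ACSS2 KO replicate 4 or DKO1 replicates 1 or 4, each left out alone (-0.14 to -0.31, adjusted p = 0.05 to 0.16).

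Ltbp3, which binds latent TGF-beta before secretion, ranged from 8590.5 to 10360.1 in WT, 8871 to 9761 in ACLY KO, 10206 to 11208 in ACSS2 KO and 4963 to 6422 in DKO1. DKO1 was below all other libraries. Ltbp3 fell in DKO1 against WT (-0.72 ± 0.10, adjusted p = 3.3e-05), ACLY KO (-0.67 ± 0.10, adjusted p = 0.00024) and ACSS2 KO (-0.86 ± 0.10, adjusted p = 1.2e-05). Ltbp1, a carrier of latent TGF-beta in the matrix, ranged from 671 to 798 in WT and from 499 to 584, 471 to 518 and 439 to 608 in ACLY KO, ACSS2 KO and DKO1. It fell against WT in all 3 (-0.45, -0.56 and -0.45, with adjusted p of 0.0021, 0.0017 and 0.0031). A rise in DKO1 against ACSS2 KO (0.11 ± 0.11, adjusted p = 0.43) was called without DKO1 replicate 4 (0.26, adjusted p = 0.019).

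Ltbp2, a matrix protein of the same family that does not bind latent TGF-beta, was low throughout, at 34.0, 15.9, 13.8 and 15.1 in WT, 9.12, 18.0, 11.8 and 16.1 in ACLY KO, 6.76, 8.69 and 4.14 in ACSS2 KO and 4.21, 2.83 and 3.43 in DKO1. WT replicate 1 was the highest, WT and ACLY KO overlapped, and all libraries without ACSS2 were below all with it. Ltbp2 fell 4.35-fold in DKO1 against WT (-2.12 ± 0.35, adjusted p = 0.00019) and 3.21-fold in DKO1 against ACLY KO (-1.68 ± 0.35, adjusted p = 0.0032). Its fall in ACSS2 KO against WT (-1.41 ± 0.35, adjusted p = 0.009) was not called without ACSS2 KO replicate 4 (-1.16, adjusted p = 0.054). It was the only one of the 45 genes called lower after ACSS2 loss both with and without ACLY, where 2.63% of all genes were. The values in both genotypes without ACSS2 were under 10, so that Ltbp2 passed the filter through the groups where it was high. Bmp1, a protease that processes procollagens and frees latent ligands, ranged from 3332 to 3538 in WT, 3457 to 3704 in ACLY KO, 3649 to 3723 in ACSS2 KO and 3238 to 3807 in DKO1, and passed no test. It was called higher in DKO1 than in WT without DKO1 replicate 4 (0.13, adjusted p = 0.033).

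**Figure D3:**
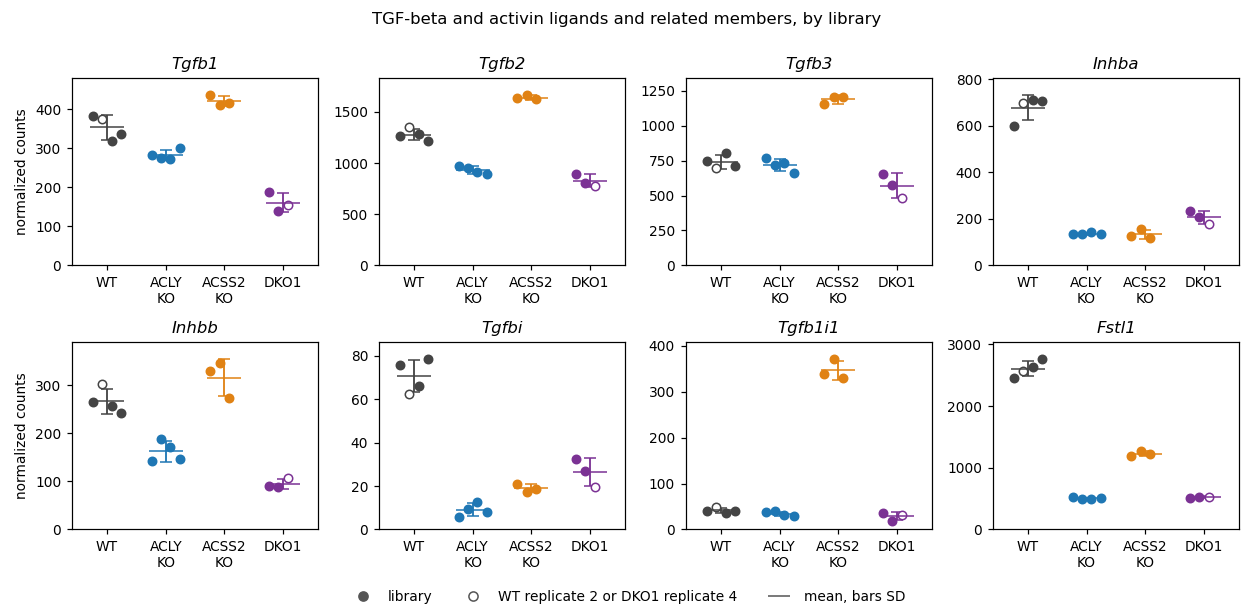
Normalized counts (y axes, linear and starting at 0) of TGF-beta and activin genes, Tgfbi, Tgfb1i1 and Fstl1 in each library, by genotype. Points are libraries, open points WT replicate 2 and DKO1 replicate 4, horizontal lines group means and bars SD. Inhba, Tgfbi and Fstl1 are highest in all 4 WT libraries, Tgfb1 and Inhbb are lowest in DKO1, and Tgfb1i1 is at 330.0 to 370.5 in ACSS2 KO and at or under 49.5 elsewhere.

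Targets named for TGF-beta behaved unlike each other. Tgfbi, a secreted matrix protein induced by TGF-beta, was 75.7, 62.7, 66.3 and 78.5 in WT, 5.89, 9.41, 12.9 and 8.28 in ACLY KO, 20.9, 17.2 and 18.6 in ACSS2 KO and 32.7, 26.9 and 19.7 in DKO1. WT was above all other libraries, ACLY KO was below all others, and ACSS2 KO and DKO1 overlapped. Tgfbi was 7.30-fold lower in ACLY KO (-2.87 ± 0.21, adjusted p = 1.9e-07) and 3.6-fold lower in ACSS2 KO (-1.85 ± 0.23, adjusted p = 7e-05) than in WT. In DKO1 it was 2.66-fold lower than in WT (-1.41 ± 0.23, adjusted p = 0.00019) and 2.74-fold higher than in ACLY KO (1.46 ± 0.23, adjusted p = 0.00053).

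Tgfb1i1, also named Hic-5, is a focal adhesion protein whose gene TGF-beta induces. It was 39.1, 49.5, 36.7 and 41.1 in WT, 37.1, 39.3, 32.5 and 29.1 in ACLY KO, 338, 370.5 and 330.0 in ACSS2 KO and 35.6, 18.5 and 31.2 in DKO1. Its locus is chr7:128246812-128255699 (plus strand). The ACSS2 KO libraries were far above all others, and ACLY KO overlapped both WT and DKO1. Tgfb1i1 was 8.19-fold higher in ACSS2 KO than in WT (3.03 ± 0.20, adjusted p = 2.9e-07), the largest rise of the 45 genes in ACSS2 KO. It was 12.2-fold lower in DKO1 than in ACSS2 KO (-3.61 ± 0.21, adjusted p = 1.5e-08). The smaller difference of DKO1 from WT (-0.58 ± 0.20, adjusted p = 0.024) was not called without WT replicate 2 or DKO1 replicate 3, each left out alone (-0.30 to -0.49, adjusted p = 0.059 to 0.12).

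Among the receptors, Bmpr1b had the largest changes. Bmpr1b, a BMP type I receptor, was 2.74, 2.25, 5.64 and 6.91 in WT, 33.3, 29.7, 39.1 and 40.2 in ACLY KO, 3.73, 6.48 and 7.44 in ACSS2 KO and 38.3, 52.5 and 25.7 in DKO1. The gene lies at chr3:141837136-142169425 (minus strand). All libraries without ACLY were above all libraries with it. Bmpr1b was 7.23-fold higher in ACLY KO than in WT (2.85 ± 0.32, adjusted p = 8.3e-06) and 5.73-fold higher in DKO1 than in ACSS2 KO (2.52 ± 0.37, adjusted p = 8.2e-05). The values for ACSS2 KO against WT (0.41 ± 0.35, adjusted p = 0.44) and DKO1 against ACLY KO (0.08 ± 0.35, adjusted p = 0.89) did not pass the test. The WT and ACSS2 KO values were under 10, so that the gene passed the filter through the groups where it was high.

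Bmpr1a, the BMP type I receptor of most tissues, ranged from 2748 to 3768 in WT, 2645 to 2941 in ACLY KO, 4228 to 4707 in ACSS2 KO and 1646 to 2712 in DKO1. It was lower in DKO1 than in ACSS2 KO (-0.98 ± 0.16, adjusted p = 0.00022) and WT (-0.54 ± 0.15, adjusted p = 0.0086). The difference from WT was -0.31 without DKO1 replicate 4. The comparison of ACSS2 KO with WT was at the limit (0.44 ± 0.15, adjusted p = 0.051). A rise was called without WT replicate 3 (0.50, adjusted p = 0.045) or DKO1 replicate 1, 3 or 4, with the last of these giving 0.44, adjusted p = 0.0017. That of ACLY KO with WT (-0.26 ± 0.14, adjusted p = 0.16) was called lower without DKO1 replicate 4 (-0.26, adjusted p = 0.016). Bmpr2, the BMP type II receptor, ranged from 2124 to 3714 in WT, 2213 to 2960.1 in ACLY KO, 3270.4 to 3798 in ACSS2 KO and 1424 to 2899 in DKO1. WT replicate 2, ACLY KO replicate 4 and DKO1 replicate 4 were the lowest of their groups. Its fall from ACSS2 KO to DKO1 (-0.68 ± 0.25, adjusted p = 0.036) was not called without ACSS2 KO replicates 1, 2 or 4 or DKO1 replicate 4, each left out alone (-0.36 to -0.75, adjusted p = 0.052 to 0.13). A fall in DKO1 against WT (-0.44 ± 0.24, adjusted p = 0.13) was called without WT replicate 2 (-0.61, adjusted p = 0.032) or DKO1 replicate 1 (-0.63, adjusted p = 0.048).

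Acvr1b, the activin type I receptor ALK4, was 298, 196, 327 and 325 in WT, 401, 333, 343 and 319 in ACLY KO, 464, 521 and 529.8 in ACSS2 KO and 194, 241 and 151 in DKO1. ACSS2 KO was above all other libraries, and DKO1 was below ACLY KO but overlapped WT through WT replicate 2. Acvr1b rose in ACSS2 KO against WT (0.84 ± 0.18, adjusted p = 0.0042) and fell in DKO1 against ACLY KO (-0.85 ± 0.18, adjusted p = 0.0041) and against ACSS2 KO (-1.39 ± 0.20, adjusted p = 5.8e-05). Its fall in DKO1 against WT (-0.55 ± 0.18, adjusted p = 0.023) was not called without WT replicates 1, 3 or 4 or DKO1 replicate 4, each left out alone (-0.37 to -0.52, adjusted p = 0.053 to 0.089).

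Acvr2a, a type II receptor for activins and BMPs, ranged from 675 to 817 in WT, 1117 to 1262 in ACLY KO, 666 to 763 in ACSS2 KO and 906 to 1574 in DKO1. It rose after ACLY loss both with ACSS2 (0.72 ± 0.14, adjusted p = 0.00073) and without it (0.85 ± 0.16, adjusted p = 0.00059). With DKO1 replicate 4 left out, DKO1 was also called above ACLY KO (0.31, adjusted p = 0.016). Acvr2b, its close relative, ranged from 265 to 323 in WT, 202 to 254 in ACLY KO, 284 to 351 in ACSS2 KO and 231 to 271 in DKO1. Acvr2b fell in ACLY KO against WT (-0.37 ± 0.10, adjusted p = 0.0091). Its fall from ACSS2 KO to DKO1 (-0.40 ± 0.12, adjusted p = 0.013) was not called without ACSS2 KO replicates 2 or 4, each left out alone (-0.34 to -0.36, adjusted p = 0.05 to 0.054). That from WT to DKO1 (-0.28 ± 0.11, adjusted p = 0.045) was not called without WT replicates 1, 3 or 4, ACLY KO replicates 2 or 3, ACSS2 KO replicates 2 or 4 or DKO1 replicates 1 or 3, each left out alone (-0.23 to -0.28, adjusted p = 0.052 to 0.13).

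Acvr1, the type I receptor ALK2, ranged from 1278 to 1591 in WT, 1015 to 1153 in ACLY KO, 1423 to 1558 in ACSS2 KO and 737 to 1228 in DKO1. It fell in DKO1 against WT (-0.52 ± 0.15, adjusted p = 0.009) and against ACSS2 KO (-0.53 ± 0.16, adjusted p = 0.013), with values of -0.29 and -0.29 without DKO1 replicate 4. Its fall in ACLY KO against WT (-0.43 ± 0.14, adjusted p = 0.021) was not called without WT replicates 3 or 4 or ACLY KO replicate 4, each left out alone (-0.39, adjusted p = 0.056 to 0.058).

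The 3 TGF-beta receptor genes were expressed in every library. DKO1 replicate 4 was the lowest library for each except Tgfbr3, where WT replicates 1 and 2 were lower. Tgfbr1, the TGF-beta type I receptor, ranged from 859 to 1279 in WT, 1414 to 1710.2 in ACLY KO, 1253 to 1384 in ACSS2 KO and 698 to 1273 in DKO1. Its rise in ACLY KO against WT (0.51 ± 0.17, adjusted p = 0.023) was not called without WT replicate 2 or ACLY KO replicates 1, 2 or 3, each left out alone (0.39 to 0.50, adjusted p = 0.051 to 0.07). Its fall from ACLY KO to DKO1 (-0.67 ± 0.18, adjusted p = 0.016) was -0.41 without DKO1 replicate 4. Tgfbr2, the type II receptor, ranged from 2509 to 3293 in WT, 2495 to 2912 in ACLY KO, 2899 to 3091 in ACSS2 KO and 1508 to 2623 in DKO1. Its fall in DKO1 against WT (-0.46 ± 0.16, adjusted p = 0.027) was not called without WT replicates 3 or 4 or DKO1 replicate 4, each left out alone (-0.20 to -0.43, adjusted p = 0.062 to 0.08). That against ACSS2 KO (-0.47 ± 0.17, adjusted p = 0.035) was not called without ACSS2 KO replicates 1, 2 or 4 or DKO1 replicate 4, each left out alone (-0.21 to -0.48, adjusted p = 0.066 to 0.094). Tgfbr3, or betaglycan, presents ligands to the other receptors and ranged from 867 to 1196 in WT, 1486 to 1670.1 in ACLY KO, 1481 to 1677 in ACSS2 KO and 1066 to 1944 in DKO1. It rose in ACLY KO against WT (0.60 ± 0.15, adjusted p = 0.0057). Its rise in ACSS2 KO (0.62 ± 0.17, adjusted p = 0.015) was not called without ACSS2 KO replicates 2 or 4, each left out alone (0.59, adjusted p = 0.057 to 0.061). Its rise in DKO1 (0.53 ± 0.17, adjusted p = 0.016) was not called without DKO1 replicates 1 or 3, each left out alone (0.35 to 0.46, adjusted p = 0.062 to 0.08).

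**Figure D4:**
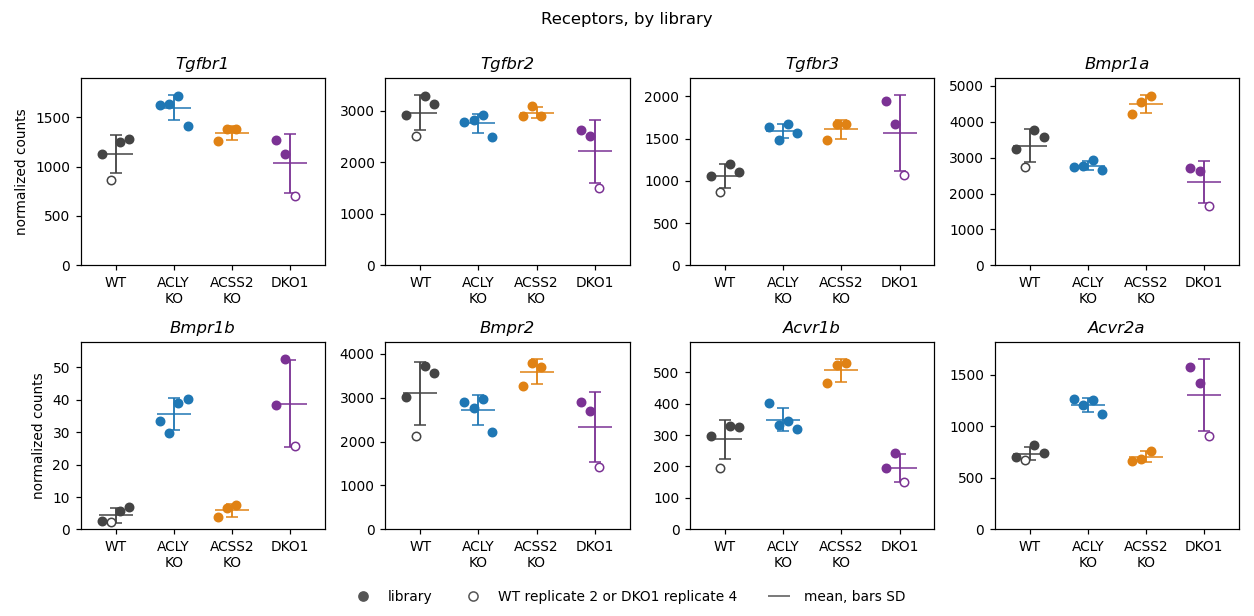
Normalized counts (y axes, linear and starting at 0) of 8 receptor genes in each library, by genotype. Points are libraries, open points WT replicate 2 and DKO1 replicate 4, horizontal lines group means and bars SD. Bmpr1b is at 29.7 to 40.2 in ACLY KO and 25.7 to 52.5 in DKO1 and under 10 in the other genotypes, Acvr2a is higher in both genotypes without ACLY, and the open DKO1 point is the lowest of its group in all 8 panels.

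Of the Smads of the TGF-beta and activin arm, Smad2 was called in 1 comparison and Smad3 in none with all libraries in the fit. Smad2 ranged from 2673 to 3083 in WT, 2865 to 3000.1 in ACLY KO, 2673 to 2725 in ACSS2 KO and 2859.9 to 3381 in DKO1. Its rise in DKO1 against ACSS2 KO (0.24 ± 0.07, adjusted p = 0.015) was not called without DKO1 replicate 3 (0.19, adjusted p = 0.062). Without DKO1 replicate 4, Smad2 was called higher in DKO1 against WT (0.22, adjusted p = 0.0053) and against ACLY KO (0.19, adjusted p = 0.025). Smad3 ranged from 2664 to 3223 in WT, 2763 to 3216 in ACLY KO, 2697 to 2960.4 in ACSS2 KO and 1662 to 3071 in DKO1 and passed no test. Without DKO1 replicate 1 Smad3 was called lower in DKO1 than in WT (-0.46, adjusted p = 0.029), and DKO1 replicate 4 was its lowest library. Smad4, the Smad common to both arms, ranged from 3300.5 to 3617 in WT, 2801 to 2931 in ACLY KO, 3411 to 3614 in ACSS2 KO and 2654 to 2806 in DKO1. It fell in ACLY KO against WT (-0.27 ± 0.05, adjusted p = 0.00045) and in DKO1 against ACSS2 KO (-0.36 ± 0.06, adjusted p = 0.00012).

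Smad1 and Smad5 carry BMP signals, and the ACLY KO libraries were below all others for both. Smad1 ranged from 992 to 1104 in WT, 631 to 726 in ACLY KO, 1126 to 1137 in ACSS2 KO and 753 to 897 in DKO1. It fell in ACLY KO against WT (-0.64 ± 0.07, adjusted p = 4.2e-06) and in DKO1 against ACSS2 KO (-0.44 ± 0.08, adjusted p = 0.00033). DKO1 was above ACLY KO (0.31 ± 0.07, adjusted p = 0.0068), a difference not called with equal library totals (0.26, adjusted p = 0.055). Smad5 ranged from 1841 to 2438 in WT, 1230.3 to 1457 in ACLY KO, 2034 to 2297 in ACSS2 KO and 1473 to 2277 in DKO1, and fell in ACLY KO against WT (-0.70 ± 0.13, adjusted p = 0.00059). Its rise from ACLY KO to DKO1 (0.52 ± 0.14, adjusted p = 0.015) was not called without DKO1 replicates 1 or 3, each left out alone (0.40 to 0.44, adjusted p = 0.056 to 0.06).

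Of the antagonists, Fstl1 fell most. Fstl1, a secreted follistatin-like glycoprotein that can bind BMPs, was 2460.0, 2567, 2639 and 2758 in WT, 521, 499, 499.6 and 510.1 in ACLY KO, 1189, 1267 and 1218 in ACSS2 KO and 509, 530.0 and 532 in DKO1. Its locus is chr16:37776873-37836514 (plus strand). WT was above ACSS2 KO, and ACSS2 KO above ACLY KO and DKO1, which overlapped. Fstl1 was 5.12-fold lower in ACLY KO (-2.36 ± 0.05, adjusted p = 9.8e-12) and 2.13-fold lower in ACSS2 KO (-1.09 ± 0.06, adjusted p = 5.2e-08) than in WT. In DKO1 it was 4.97-fold lower than in WT (-2.31 ± 0.06, adjusted p = 1.9e-11) and 2.34-fold lower than in ACSS2 KO (-1.22 ± 0.06, adjusted p = 3.1e-09).

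Fst, which encodes the activin antagonist follistatin, ranged from 900.1 to 1201 in WT, 678 to 743 in ACLY KO, 558 to 728 in ACSS2 KO and 644 to 846 in DKO1. All 3 knockout genotypes were below WT, with log2 fold changes of -0.45, -0.57 and -0.46 and adjusted p of 0.0064, 0.005 and 0.0078. Fstl3, a related activin antagonist, ranged from 1405 to 1476 in WT, 1911 to 2064 in ACLY KO, 1258 to 1320.1 in ACSS2 KO and 1518 to 1745 in DKO1. It rose after ACLY loss both with ACSS2 (0.47 ± 0.05, adjusted p = 9.5e-06) and without it (0.35 ± 0.06, adjusted p = 0.00038), and its annotated exons share 1157 bases with Prss57 on the other strand. A fall in ACSS2 KO against WT (-0.16 ± 0.06, adjusted p = 0.059) was called without DKO1 replicate 1 (-0.16, adjusted p = 0.035) or 4 (-0.16, adjusted p = 0.018).

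Nog, which encodes the BMP antagonist noggin, ranged from 214 to 331 in WT, 147 to 205 in ACLY KO, 142 to 174 in ACSS2 KO and 153 to 329 in DKO1. Its fall in ACLY KO against WT (-0.59 ± 0.21, adjusted p = 0.035) was not called without WT replicates 1 or 2 or ACLY KO replicates 1, 2 or 3, each left out alone (-0.46 to -0.60, adjusted p = 0.062 to 0.1). Its fall in ACSS2 KO against WT (-0.68 ± 0.23, adjusted p = 0.044) was not called without WT replicates 1 or 2, ACLY KO replicates 1, 2 or 3, ACSS2 KO replicates 1, 2 or 4 or DKO1 replicate 3, each left out alone (-0.55 to -0.76, adjusted p = 0.054 to 0.15). The difference of DKO1 from WT (-0.21 ± 0.23, adjusted p = 0.45) was called without DKO1 replicate 4 (-0.51, adjusted p = 0.03). Bambi, a decoy receptor induced by the pathway, was under the limit for testing at 4.48 to 28.1 in WT, 1.71 to 4.98 in ACLY KO, 8.57 to 21.5 in ACSS2 KO and 1.02 to 5.82 in DKO1. Grem1, the BMP antagonist gremlin, was listed at 0 in all 14 libraries.

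The genes that limit the signal inside the cell fell in DKO1 where they changed. Smad7, which blocks both arms at the type I receptor, ranged from 918 to 1068 in WT, 862 to 947 in ACLY KO, 1092 to 1133 in ACSS2 KO and 673 to 779 in DKO1. It fell in DKO1 against WT (-0.47 ± 0.07, adjusted p = 9e-05), ACLY KO (-0.34 ± 0.07, adjusted p = 0.0031) and ACSS2 KO (-0.64 ± 0.08, adjusted p = 1.1e-05). Its value in ACSS2 KO against WT (0.17 ± 0.07, adjusted p = 0.1) was called higher without DKO1 replicate 4 (0.17, adjusted p = 0.036). Skil, which encodes the Smad co-repressor SnoN, ranged from 2155 to 2592 in WT, 1616 to 1949 in ACLY KO, 1913 to 2141 in ACSS2 KO and 927 to 1397 in DKO1. Skil fell in ACLY KO (-0.40 ± 0.12, adjusted p = 0.012) and DKO1 (-1.0 ± 0.13, adjusted p = 2.3e-05) against WT. It also fell in DKO1 against ACLY KO (-0.59 ± 0.13, adjusted p = 0.004) and ACSS2 KO (-0.77 ± 0.14, adjusted p = 0.00035). Its lower value in ACSS2 KO than in WT (-0.22 ± 0.13, adjusted p = 0.23) was called without DKO1 replicate 4 (-0.22, adjusted p = 0.044).

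Smurf1 and Smurf2 encode ubiquitin ligases that remove Smads and receptors. Smurf1 ranged from 2336 to 3382 in WT, 2549.8 to 2977 in ACLY KO, 2756 to 3036 in ACSS2 KO and 1777 to 2976 in DKO1, and Smurf2 from 1481 to 2088, 1983 to 2247, 2035 to 2128 and 1239.8 to 2059. Neither passed a test in any comparison, with log2 fold changes of -0.29 ± 0.17, adjusted p = 0.16 for Smurf1 and -0.11 ± 0.16, adjusted p = 0.59 for Smurf2 in DKO1 against WT. The DKO1 value of Smurf1 was called lower without WT replicate 2 (-0.41, adjusted p = 0.037), and for both genes WT replicate 2 and DKO1 replicate 4 were the lowest of their groups.

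ACLY loss was measured in cells with ACSS2, as ACLY KO against WT, and in cells without it, as DKO1 against ACSS2 KO. These comparisons share no library, but DKO1 was cloned from ACLY KO cells. A trait of the ACLY KO clone would enter both comparisons and cannot be told apart from ACLY loss. A trait of the ACSS2 KO clone would enter the second. Of the 45 genes, 16 were called lower in both, where 16.7% of all genes were, and some calls for Acvr1 and Acvr2b rest on the libraries named above. These were the ligand genes Bmp2, Bmp4, Tgfb1, Tgfb2 and Inhbb, the receptors Acvr1 and Acvr2b, the Smads Smad1, Smad4, Smad6 and Smad9, the antagonist Fstl1, the co-repressor Skil, and Id1, Id2 and Id3. With library totals made equal, Tgfb1 (-0.21), Acvr1 (-0.32), Acvr2b (-0.26), Smad4 (-0.16) and Skil (-0.29) were not called in ACLY KO against WT. Higher in both were Acvr2a, Bmpr1b and Fstl3, 3 of 45, where 15.0% of all genes were. Bmp6, Inhba and Ltbp4 were called in opposite directions, 3 of 45 against 2.72% of all genes.

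The difference between the effects of ACLY loss with and without ACSS2 was tested as an interaction, (DKO1 against ACSS2 KO) minus (ACLY KO against WT). DKO1 was not cloned from ACSS2 KO cells. A trait of the ACSS2 KO or DKO1 clone would enter the interaction and cannot be told apart from an effect of the enzymes. The interaction called 24 of the 45 genes, 6 higher and 18 lower, where 27.1% of all genes were called, 12.0% higher and 15.1% lower. The fall of Bmp2 was larger without ACSS2 than with it (-2.38 ± 0.36, adjusted p = 0.00031), as were those of Smad9 (-2.64 ± 0.42, adjusted p = 0.00052) and Id3 (-1.35 ± 0.29, adjusted p = 0.0038). The same held for Smad6 (-0.81 ± 0.17, adjusted p = 0.0033), Tgfb1 (-1.07 ± 0.14, adjusted p = 0.00011) and Inhbb (-1.01 ± 0.18, adjusted p = 0.001). The same interaction for Id1 was -0.92 ± 0.33, adjusted p = 0.057, and it was called without WT replicate 2 (-1.09, adjusted p = 0.022) or DKO1 replicate 4 (-1.27, adjusted p = 7e-04). For Bmp4 it was -0.34 ± 0.16, adjusted p = 0.15, and it was called without DKO1 replicate 4 (-0.48, adjusted p = 0.013). Leaving out DKO1 replicate 4 also gave called interactions for Smad1 (0.27, adjusted p = 0.032), Smad2 (0.29, adjusted p = 0.012), Smad5 (0.71, adjusted p = 0.0014) and Acvr2a (0.37, adjusted p = 0.027). Inhba (2.95 ± 0.16, adjusted p = 6.9e-08), Tgfbi (3.31 ± 0.33, adjusted p = 1.1e-05) and Fstl1 (1.13 ± 0.08, adjusted p = 5.6e-07) had positive interactions. Their log2 fold changes on ACLY loss in cells without ACSS2 were 0.64, 0.44 (adjusted p = 0.15) and -1.22 against -2.31, -2.87 and -2.36 in cells with it. At the stricter limits the interaction was called for 7 of the 45 genes and 4.61% of all genes.

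**Figure D5:**
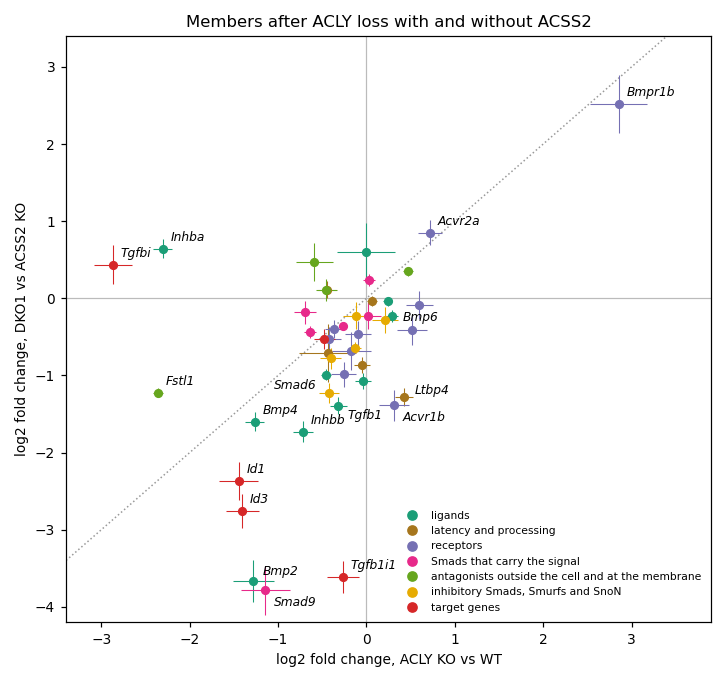
Scatter plot of the log2 fold changes of the 45 genes after ACLY loss in cells with ACSS2 (x axis, ACLY KO against WT) and without it (y axis, DKO1 against ACSS2 KO), with SE bars, colors for roles and a dotted line of equal change. Bmp2, Bmp4, Id1, Id3 and Smad9 lie in the lower left, Bmpr1b and Acvr2a in the upper right, and Inhba and Tgfbi in the upper left.

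ACSS2 loss was likewise measured in comparisons that share no library, ACSS2 KO against WT and DKO1 against ACLY KO. In addition to Bmp6, Bmp7 and Ltbp2, described above, 5 of the 45 genes were called in opposite directions, where 4.75% of all genes were. Acvr1b, Ltbp4 and Tgfb3 rose with ACLY present (0.84, 1.0 and 0.68) and fell without it (-0.85, -0.71 and -0.34). Inhba and Tgfbi fell with ACLY present (-2.35 and -1.85) and rose without it (0.60 and 1.46). Of Bmp2, Bmp4, Id1, Id3, Smad6 and Smad9, which all rose in ACSS2 KO against WT, none was called in DKO1 against ACLY KO. The limma values ran from -0.31 for Bmp2 to 0.28 for Bmp4 with an unadjusted p under 0.05 for Bmp4 alone.

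Genes of the pathway outside the 48 were counted from a wider list of 76, of which 75 had rows and 38 were tested. In ACLY KO against WT 6 were higher and 7 lower, where 23.8% and 24.7% of all genes were. The counts were 4 and 6 in ACSS2 KO against WT (15.1% and 11.0% of all genes) and 7 and 10 in DKO1 against WT (27.9% and 28.1%). They were 3 and 7 in DKO1 against ACLY KO (14.3% and 13.6%) and 6 and 10 in DKO1 against ACSS2 KO (25.9% and 27.8%). The genes named from this list and the lists that follow are those with the smallest adjusted p in each direction. Itgb6, an integrin chain that activates latent TGF-beta, was 789 to 881 in WT, 3076 to 3394 in ACLY KO, 644 to 699.7 in ACSS2 KO and 1898 to 2482 in DKO1. It rose in ACLY KO (1.95 ± 0.08, adjusted p = 6.9e-10) and DKO1 (1.41 ± 0.08, adjusted p = 2.8e-08) against WT. Nbl1, a secreted BMP antagonist, was 579.9 to 706 in WT, 139 to 181 in ACLY KO, 572 to 614 in ACSS2 KO and 265 to 388 in DKO1. It fell in ACLY KO against WT (-1.96 ± 0.12, adjusted p = 2.1e-08) and rose in DKO1 against ACLY KO (0.97 ± 0.12, adjusted p = 9.6e-05).

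Acvr1c, the type I receptor ALK7, rose in DKO1 against WT (1.19 ± 0.26, adjusted p = 0.0018), and Tab1, an activator of the kinase TAK1, rose in ACLY KO (0.54 ± 0.06, adjusted p = 3.5e-06). The repressor gene Tgif1 fell in ACLY KO against WT (-0.40 ± 0.06, adjusted p = 0.00019). Its relative Tgif2 fell in DKO1 against WT (-0.92 ± 0.08, adjusted p = 1e-06) and ACLY KO (-1.05 ± 0.08, adjusted p = 1.7e-06). Gdf15, a distant family member induced by stress, was at 2469.7, 3457 and 7267 in DKO1 and 1608 to 2078 in ACLY KO (1.1 ± 0.26, adjusted p = 0.007), with DKO1 replicate 4 far above the others. Without that library the value was 0.66, adjusted p = 0.0019.

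TGF-beta targets outside the 48 moved both ways. Of 27 listed genes 25 were tested, and 5 were higher and 12 lower in ACLY KO against WT, where 23.8% and 24.7% of all genes were. The counts were 4 and 7 in ACSS2 KO against WT (15.1% and 11.0% of all genes) and 5 and 10 in DKO1 against WT (27.9% and 28.1%). They were 7 and 2 in DKO1 against ACLY KO (14.3% and 13.6%) and 8 and 8 in DKO1 against ACSS2 KO (25.9% and 27.8%). Cdh1, or E-cadherin, which TGF-beta represses, was 529 to 559 in WT, 49.6 to 70.7 in ACLY KO, 179 to 213 in ACSS2 KO and 63.5 to 67.9 in DKO1. It fell against WT in ACLY KO (-3.21 ± 0.10, adjusted p = 1.5e-10), ACSS2 KO (-1.52 ± 0.11, adjusted p = 8.4e-07) and DKO1 (-3.05 ± 0.11, adjusted p = 4.7e-10). Twist1, a factor of epithelial-mesenchymal transition, was 132 to 152 in WT, 22.1 to 28.6 in ACLY KO, 219.8 to 301 in ACSS2 KO and 25.1 to 30.8 in DKO1. It fell in ACLY KO (-2.44 ± 0.12, adjusted p = 5.5e-09) and DKO1 (-2.33 ± 0.13, adjusted p = 1.8e-08) and rose in ACSS2 KO (0.84 ± 0.13, adjusted p = 0.00044) against WT.

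Snai2, a repressor of E-cadherin, rose in ACLY KO (0.79 ± 0.12, adjusted p = 0.00013) and DKO1 (1.38 ± 0.13, adjusted p = 1.6e-06) against WT. Col1a1, a fibrillar collagen gene, was 2260.2 to 2651 in ACLY KO and 374 to 458, 498 to 537 and 434 to 504 in WT, ACSS2 KO and DKO1. It rose in ACLY KO against WT (2.52 ± 0.08, adjusted p = 1.3e-10) and fell in DKO1 against ACLY KO (-2.36 ± 0.09, adjusted p = 2.1e-09). Col1a2 rose in DKO1 against WT (2.36 ± 0.27, adjusted p = 8.7e-06). The matrix protein gene Cyr61 (0.46 ± 0.06, adjusted p = 0.00018) and the cell cycle inhibitor Cdkn1a (0.67 ± 0.10, adjusted p = 0.00022) rose in DKO1 against ACLY KO, the first not called under quantile normalization (0.28, adjusted p = 0.22). Pmepa1, which limits TGF-beta signaling, fell (-0.54 ± 0.11, adjusted p = 0.0026).

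Of 10 BMP targets outside the 48, 4 were tested. In ACLY KO against WT 1 was higher and 1 lower, where 23.8% and 24.7% of all genes were. The counts were 1 and 0 in ACSS2 KO against WT (15.1% and 11.0% of all genes) and 1 and 2 in DKO1 against WT (27.9% and 28.1%). They were 1 and 0 in DKO1 against ACLY KO (14.3% and 13.6%) and 2 and 2 in DKO1 against ACSS2 KO (25.9% and 27.8%). Atoh8, a transcription factor gene induced by BMPs in liver, was 411 to 528 in WT, 203 to 220.3 in ACLY KO, 1003 to 1106 in ACSS2 KO and 184 to 237 in DKO1. It was lower in ACLY KO (-1.12 ± 0.09, adjusted p = 5e-07) and DKO1 (-1.16 ± 0.10, adjusted p = 7.2e-07) than in WT and higher in ACSS2 KO (1.19 ± 0.10, adjusted p = 2.8e-06). Hey1, a repressor known as a target of BMP and Notch, fell in DKO1 against WT (-1.62 ± 0.38, adjusted p = 0.003), by less without DKO1 replicate 3 (-1.01, adjusted p = 0.005). Tmprss6, a liver protease gene that limits hepcidin, was 2.62 to 5.76 in WT, 5.71 to 10.1 in ACLY KO, 4.15 to 10.9 in ACSS2 KO and 28.7 to 35.5 in DKO1, so that it passed the filter through DKO1, where it was high. Tmprss6 was the gene called higher in ACLY KO against WT. It rose more in DKO1, both against WT (2.61 ± 0.33, adjusted p = 1.8e-05) and against ACLY KO (1.83 ± 0.33, adjusted p = 0.0011). Runx2, a bone transcription factor gene and the remaining gene tested, was named after its values were seen. It was 428 to 562 in WT, 527 to 634 in ACLY KO, 399 to 439.6 in ACSS2 KO and 441 to 707 in DKO1, with its lowest mean in ACSS2 KO, unlike Atoh8. It passed the test only in DKO1 against ACSS2 KO (0.44 ± 0.15, adjusted p = 0.026), and not without ACSS2 KO replicate 1 or 4 or DKO1 replicate 1 or 3, where the lowest value was 0.28, adjusted p = 0.11.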

How the data were processed

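Poly(A) RNA of 14 samples was made into stranded libraries and sequenced as 75-base single reads. Per the labels and the study's methods, the authors aligned reads to mm10 with STAR and normalized gene counts with DESeq2 1.0.1. The deposited signal is a table of these normalized counts, estimated reads per gene divided by a factor for each gene and library, so values are not whole reads and library depth enters only through the factors. The annotation, the counting step and its strand setting are not given in the sources used here, and exons of 10 of the 48 genes share bases with a gene on the other strand. A count model was not used because the reads could not be recovered.

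From the 24972 rows, genes with a mean of at least 10 (12711) were taken as log2(value + 1) into limma 3.58.1 (R 4.3.3), 1 mean per genotype over all 14 libraries with intensity-dependent moderation. Fold changes on this scale understate those of low genes. P-values were adjusted by Benjamini-Hochberg over all genes tested, for 5 comparisons and 1 interaction, and a call means an adjusted p under 0.05. The script was tested on simulated data. Symbols of 26 rows had been turned into dates, none of them among the 48. Replicates are those the labels number, and groups are those of the labels.

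The 48 genes, the wider lists and the marker lists were chosen with earlier results of these data known. Members called with a log2 fold change over 1 in size in any comparison have every library given, and from the other lists the 2 smallest adjusted p in each direction in ACLY KO against WT, DKO1 against WT and DKO1 against ACLY KO were named. Alternatives were other added constants, no filter or a stricter one, equal library totals, quantile normalization, array weights, a transcript length correction, fits of only the groups compared, replicate number as a block, and each library left out. Gene positions are from GENCODE M21 and promoter windows from RefSeq, both on GRCm38.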

Additional observations from a re-analysis of the deposited data

Results flagged for a closer look

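In 5 of 90 groups of 4 libraries, 1 library lay far from the others, where chance flags about 1 in 20 groups. In WT, replicate 1 had Inhba at 597 normalized counts against 697 to 708 in the other 3, and Ltbp2 at 34.0 against 13.8 to 15.9. WT replicate 2 had Id1 at 1363 against 824 to 889, Fst at 1201 against 900.1 to 926, and Smurf1 at 2336 against 3212 to 3382. Replicate 2 is also the WT library whose values fell with transcript length.

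For 24 genes the log2 fold change of DKO1 against ACSS2 KO differed from that of ACLY KO against WT, tested as the interaction in limma. A trait of the ACSS2 KO or DKO1 clone would enter this difference and cannot be told apart from an effect of the enzymes. Among ligand genes it was 2.95 for Inhba, -2.38 for Bmp2, -1.07 for Tgfb1, -1.03 for Tgfb3, -1.01 for Inhbb, -0.54 for Tgfb2, -0.53 for Bmp6 and -0.28 for Bmp7. Among latent TGF-beta binding proteins it was -1.71 for Ltbp4, -0.81 for Ltbp3 and 0.56 for Ltbp1. Among receptors it was -1.70 for Acvr1b, -0.93 for Tgfbr1, -0.73 for Bmpr1a and -0.69 for Tgfbr3. Among Smads and antagonists it was -2.64 for Smad9, -0.81 for Smad6, -0.51 for Smad7, 1.13 for Fstl1, 1.05 for Nog and 0.56 for Fst. Among targets it was -3.35 for Tgfb1i1, 3.31 for Tgfbi and -1.35 for Id3.

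The interaction of Bmpr1a (adjusted p = 0.025) was not called without ACSS2 KO replicates 2 or 4, each left out alone (-0.69 to -0.72, adjusted p = 0.054 to 0.062). That of Tgfbr3 (adjusted p = 0.047) was not called without WT replicates 1, 2 or 4, ACLY KO replicates 1, 2, 3 or 4 or ACSS2 KO replicates 1, 2 or 4, each left out alone (-0.59 to -0.75, adjusted p = 0.058 to 0.1), and it was -0.43 without DKO1 replicate 4. That of Fst (adjusted p = 0.036) was not called without WT replicate 2, ACLY KO replicates 1, 2, 3 or 4, ACSS2 KO replicate 4 or DKO1 replicate 4, each left out alone (0.43 to 0.58, adjusted p = 0.05 to 0.1). That of Nog (adjusted p = 0.028) was not called without WT replicates 1 or 2, ACLY KO replicates 1 or 2 or ACSS2 KO replicates 1 or 4, each left out alone (0.92 to 1.04, adjusted p = 0.05 to 0.072). With library totals made equal, the interactions of Ltbp1 (0.41, adjusted p = 0.14) and Fst (0.41, adjusted p = 0.065) were not called. Some interactions stayed called but were smaller with WT replicate 2 and DKO1 replicate 4 both left out. They were then -0.54 for Tgfbr1, -0.41 for Bmpr1a, -0.34 for Tgfbr3, 0.34 for Fst and 0.62 for Nog.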

How the results depend on the processing

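The count of genes called in each of the 5 comparisons and the interaction stayed within 1.5 times its value under every alternative that gave one. Of 270 pairs of a gene and a comparison, 159 were called, 122 pairs were called in every setting that gave them a value and 54 in none. Equal library totals kept 142 of the 159 and moved the median of all genes by 0.103, 0.107 and 0.069 on the log2 scale in ACLY KO, ACSS2 KO and DKO1 against WT. Array weights kept 154, quantile normalization 155, no filter 155, the length correction 158 and added constants of 0.5 and 5 all 159. The array weights of DKO1 replicates 1, 3 and 4 were 1.54, 0.10 and 0.033. For DKO1 that fit rested mostly on replicate 1. The length correction was fitted to deviations from each genotype mean, so it changed the spread and left fold changes as they were. It cannot show whether transcript length shifted a comparison. Fits of only the groups compared kept 113 of the 135 pairs they cover, with fewer libraries behind the spread, and leaving out 1 library kept 146 to 155. Without WT replicate 2 and DKO1 replicate 4, all 159 stayed and 32 were added. Smurf1 in the interaction, besides these, turned from -0.11 (adjusted p = 0.76) to 0.25 (adjusted p = 0.022), and the cause was not tested. Its lowest value with libraries left out was -0.24, without DKO1 replicate 1. Replicate numbers were shared between groups, but the deviations of same-numbered libraries correlated from -0.43 to 0.45 over 18 pairs, 5 of them over 0.1, so the numbers were not taken as a pairing. With replicate number as a block 154 of the 159 calls remained, and calls were lost for Acvr2b in DKO1 against WT (-0.30, adjusted p = 0.068), Bmp8a in DKO1 against ACLY KO and WT (0.96 and 0.95), Nog in ACSS2 KO against WT (-0.72) and Smad2 in DKO1 against ACSS2 KO (0.20). The values keep no exact read depth, so low genes such as Bmp8a, Ltbp2, Smad9 and Bmpr1b have no counting interval.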
